A study of Mus musculus with 6 samples.

Results

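Accessible chromatin was described at 10 genes of muscle satellite cells and of the Notch pathway: *Pax7*, *Myf5*, *Cdh15*, *Vcam1*, *Spry1*, *Notch1*, *Notch3*, *Hes1*, *Heyl* and *Hey1*. Their intervals were all those of the deposited ATAC-seq table that overlap the body of 1 of these genes, or lie within 10 kb of 1 of its annotated transcription start sites (TSSs), by GENCODE vM1 on the mm9 genome. This gave 32 of the 39768 intervals of the table, or 29 when intervals that overlap each other are counted once. They belong to 9 of the 10 genes, and *Vcam1* has no interval. The methods of the study describe more union intervals for this way of calling peaks than the table holds, so that statements on a missing interval refer to this table.

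ATAC-seq uses the Tn5 transposase to cut and tag exposed DNA, and the fragment ends counted in an interval measure how accessible it is. The study asked whether the histone variant H2A.Z is needed for chromatin accessibility and transcription in muscle fibres that no longer divide. Each library was made from 50000 nuclei of C57BL/6 mice aged 7 weeks, labelled as tibialis anterior muscle, whereas the methods describe whole hind limb muscles. Mice of both groups carry H2A.Z-1 flox/flox and H2A.Z-2 flox/flox alleles. The 3 CTL libraries come from mice without HSA-Cre, called WT in the library names, and the 3 H2A.Z dKO libraries from mice with it. The human skeletal actin promoter drives this Cre in post-mitotic muscle cells, so satellite cells, which can divide, are not its target. Nuclei were not sorted by cell type. Fewer nuclei of a cell type and less accessibility per nucleus therefore cannot be told apart.

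Satellite cells are the stem cells of skeletal muscle and lie between the fibre and its basal lamina. Pax7 marks them, Myf5 commits them to the muscle lineage, and M-cadherin (Cdh15) and VCAM1 are adhesion molecules on their surface. Notch signalling keeps them quiescent: a ligand on a neighbouring cell releases the intracellular domain of the receptor, which binds the DNA-binding protein RBPJ and turns on the repressors Hes1, Heyl and Hey1. Spry1 dampens growth factor signalling in quiescent satellite cells. Several of these genes also act elsewhere in muscle, such as *Notch3* and *Heyl* in the smooth muscle of vessels.

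The sequences below are intervals, or parts of them, at the receptors and their targets, apart from that of *Hes1*, which is a promoter window. Capitals mark GTGGGAA, the core to which RBPJ binds, searched on both strands. The promoter of *Hes1*, chr16:30065226-30065425 in mm9, is shown on the strand of the gene and ends at the base before its coding TSS. Of it, only the bases up to 30065343, where Peak_33683 ends, lie in an interval, and the marked core lies past them. The other sequences are on the plus strand: Peak_8738 of *Heyl* (chr4:122916857-122917141), Peak_2811 (chr2:26381305-26381534) and the upstream part of Peak_2809 (chr2:26359343-26359491) of *Notch1*, and Peak_35315 of *Notch3* (chr17:32310220-32310395).
Hes1 promoter: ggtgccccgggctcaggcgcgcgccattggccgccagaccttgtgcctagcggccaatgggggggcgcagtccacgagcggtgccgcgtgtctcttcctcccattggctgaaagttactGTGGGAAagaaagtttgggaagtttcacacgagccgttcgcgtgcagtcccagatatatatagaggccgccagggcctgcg
Heyl Peak_8738: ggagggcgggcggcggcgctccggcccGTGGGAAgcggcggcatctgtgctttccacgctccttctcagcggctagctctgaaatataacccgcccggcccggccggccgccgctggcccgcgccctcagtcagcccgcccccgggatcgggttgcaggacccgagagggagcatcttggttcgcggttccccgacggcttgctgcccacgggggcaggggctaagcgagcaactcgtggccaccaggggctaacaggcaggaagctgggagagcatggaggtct
Notch1 Peak_2811: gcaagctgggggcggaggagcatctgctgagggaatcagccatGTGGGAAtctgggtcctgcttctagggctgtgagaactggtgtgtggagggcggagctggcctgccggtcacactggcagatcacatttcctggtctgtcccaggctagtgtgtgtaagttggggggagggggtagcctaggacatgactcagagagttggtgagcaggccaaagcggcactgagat
Notch1 Peak_2809: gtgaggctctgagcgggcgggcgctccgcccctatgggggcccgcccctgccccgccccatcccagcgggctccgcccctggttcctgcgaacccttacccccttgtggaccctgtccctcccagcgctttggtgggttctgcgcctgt
Notch3 Peak_35315: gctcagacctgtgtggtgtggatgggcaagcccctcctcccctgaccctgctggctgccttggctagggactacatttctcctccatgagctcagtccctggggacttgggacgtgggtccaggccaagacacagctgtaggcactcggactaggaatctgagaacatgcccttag

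The following sequences, also on the plus strand, are the single interval of *Pax7*, Peak_9359 (chr4:139300759-139300836), the part of Peak_23269 upstream of *Myf6* (chr10:106931786-106931929), which falls to *Myf5* by distance, and the intervals beside the TSS of *Spry1*, Peak_5685 (chr3:37538651-37538720) and Peak_5687 (chr3:37539816-37539892), which had the smallest p-values of the intervals that were lower in H2A.Z dKO.
Pax7 Peak_9359: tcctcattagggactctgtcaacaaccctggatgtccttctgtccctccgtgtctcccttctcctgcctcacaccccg
Myf5 Peak_23269: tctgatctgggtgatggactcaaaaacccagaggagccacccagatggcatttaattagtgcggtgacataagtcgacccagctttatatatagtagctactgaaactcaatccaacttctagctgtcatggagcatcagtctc
Spry1 Peak_5685: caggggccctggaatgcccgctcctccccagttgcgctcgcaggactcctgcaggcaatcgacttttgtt
Spry1 Peak_5687: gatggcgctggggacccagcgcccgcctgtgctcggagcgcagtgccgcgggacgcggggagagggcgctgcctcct

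The library totals ran from 3520008 to 6117245 counts. The 2 intervals that overlap the span of the floxed exons of *H2afz*, which encodes H2A.Z-1, held 79, 69 and 33 counts in CTL. In H2A.Z dKO they held 57, 52 and 64. The span of *H2afv*, for H2A.Z-2, had 0 intervals. The counts are not scaled for library totals and can include fragment ends outside the deleted DNA. These counts do not tell the groups apart, so directions rest on the labels. H2A.Z dKO replicate 1 stood apart from the other libraries: 77.0% of its counts fell in promoter intervals, with the midpoint within 1 kb of any annotated TSS, against 73.2% to 74.9% in the other 5. Of the marker genes of muscle fibres 17 of 22 had an interval within 1 kb of a TSS, against 8 of 16 endothelial, 7 of 13 fibroblast, 5 of 11 smooth muscle and pericyte, 3 of 8 Schwann cell and 0 of 12 macrophage markers.

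Of the 10 genes 5 had an interval with its midpoint within 1 kb of a TSS, namely *Cdh15*, *Spry1*, *Notch1*, *Hes1* and *Heyl*, whereas *Pax7*, *Myf5*, *Vcam1*, *Notch3* and *Hey1* had none. This share lies close to that of all protein-coding genes, 10980 of 22380 (49.1%). It was 84.4% (38 of 45) for a list of other Notch pathway genes and 82.1% (32 of 39) for a list of other satellite cell genes. Genes of this kind without an interval by the wider rule were *Dlk1* and *Dtx1* in the first list and *Pax3*, *Calcr*, *Chrdl2*, *Gpr116* and *Sdc3* in the second.

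**Figure D1:**
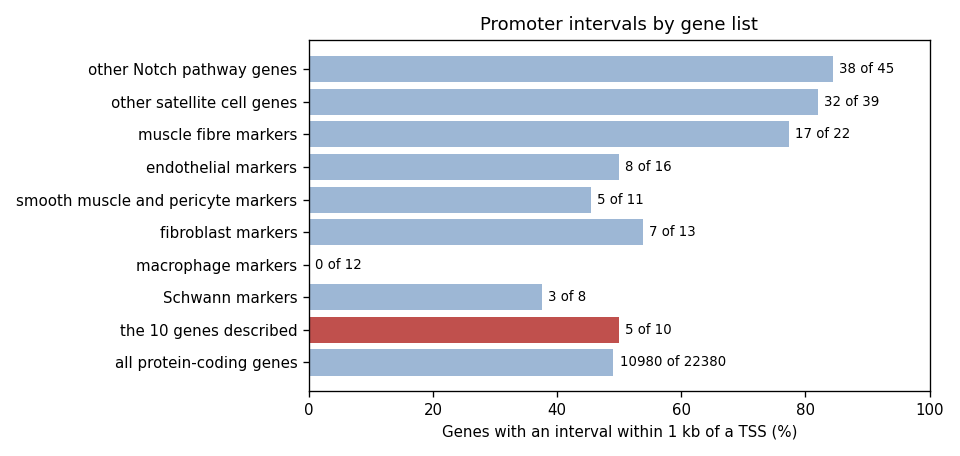
Share of genes with an interval within 1 kb of a TSS, in percent, for the 10 genes described (dark bar), for 8 lists of other genes and for all protein-coding genes. The 10 genes, with 5, sit beside all protein-coding genes at 49.1%, and both lists of related genes lie above 80%.

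Base composition did not separate the 5 genes with a promoter interval from the others. Over the 300 bases from 250 before to 50 after the start of the first coding transcript, genes of the annotation with a promoter interval had a median GC content of 61.3% and a median observed over expected CpG ratio of 0.782, against 49.3% and 0.256 for those without. *Vcam1* (35.3%, ratio 0.107) and *Myf5* (49.7%, ratio 0.163) were poor in CpG. *Notch3* (69.3%, ratio 0.723), *Hey1* (75%, ratio 0.838) and *Pax7* (51.3%, ratio 0.754) had CpG-rich starts and yet no promoter interval. *Cdh15* (49.7%, ratio 0.109) and *Heyl* (55.3%, ratio 0.230) were poor in CpG and had an interval within 1 kb of a TSS, for *Cdh15* downstream of the bases measured and for *Heyl* at an internal start.

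Of the 32 intervals 12 (37.5%) were promoter intervals of any gene, 10 lay elsewhere in a gene and 10 were intergenic, against 52.4% promoter intervals in the table. Their mean RPKM, counts per kilobase and per 1000000 counts in intervals, had a median of 119, close to the 115 of all intervals. The range went from 58.0 at Peak_35315 of *Notch3* to 208 at Peak_33681 of *Hes1*. The intervals were narrower, with a median width of 96.5 bp against 138 bp. A column made by the authors assigns 8 of them to both groups, 19 to H2A.Z dKO alone and 5 to CTL alone. The 19 make up 59.4%, against 43.4% of the table. The methods describe peaks shared by the replicates of a condition and then merged between conditions, but not that column. How an interval entered it is therefore not certain, and the counts below cover every interval in all 6 libraries.

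**Figure D2:**
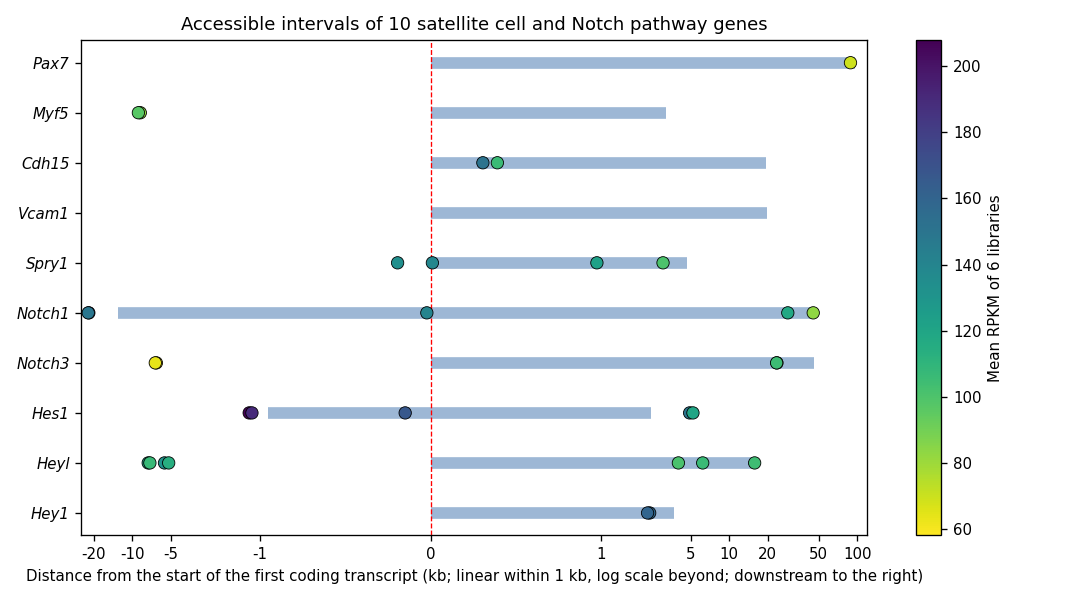
Position of the 32 intervals (points) relative to the start of the first coding transcript of each gene, in kb, with the annotated gene body as a bar and the mean RPKM of 6 libraries as colour. *Vcam1* has no point, the single point of *Pax7* lies at the far end of the gene, and the darkest point, at 208 RPKM, lies upstream of *Hes1*.

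Among the satellite cell markers, *Pax7*, which encodes the transcription factor that defines these cells, has a single interval. The gene lies on the minus strand of chr4:139292977-139389445, and Peak_9359 is 78 bp wide, in an intron 88125 bp downstream of the TSS. It held 5.08, 4.33 and 5.10 CPM (counts per 1000000 in intervals, scaled by edgeR's TMM factors) in CTL replicates 1 to 3, and 5.26, 6.93 and 5.69 CPM in H2A.Z dKO replicates 1 to 3. All H2A.Z dKO libraries lay above all CTL libraries, with the nearest pair at 5.10 and 5.26 CPM. Groups that did not overlap were found in 10.8% of all intervals of the table. The fitted log2 fold change was 0.29 (standard error, SE, 0.25), with an adjusted p of 0.9754 in edgeR's quasi-likelihood test, and the change was 0.18 without H2A.Z dKO replicate 2 and 0.22 without CTL replicate 2. These values rest on few counts, from 18 to 32 per library.

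*Vcam1*, an adhesion receptor on chr3:115812938-115832606 (minus strand), had no interval in its body or within 10 kb of a TSS. The nearest interval of the table, Peak_6791, lies 48322 bp from a TSS. No value for this gene can be given, and its accessibility in either group was not measured by the deposited counts.

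*Myf5*, on the minus strand of chr10:106919964-106923190, has Peak_23269 and Peak_23270 by the distance rule, with midpoints at -8656 and -8957 bp from its TSS. Both are closer to *Myf6*, its neighbour, which encodes another myogenic factor: their midpoints lie at -61 and -362 bp from the TSS of that gene. The start of *Myf5* itself thus has no interval. Peak_23269 held 15.9, 10.8 and 12.2 CPM in CTL and 13.0, 15.6 and 14.1 CPM in H2A.Z dKO, overlapping ranges (log2 fold change 0.11, SE 0.21). Peak_23270 had a CTL mean of 8.90 ± 0.422 CPM and an H2A.Z dKO mean of 10.3 ± 3.03 CPM (SD, n = 3 each). Their sum had a log2 fold change of 0.15 (SE 0.17), which was 0.011 without H2A.Z dKO replicate 2, 0.072 without CTL replicate 2, 0.26 without H2A.Z dKO replicate 1 and 0.27 without CTL replicate 1.

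*Cdh15*, which encodes M-cadherin, lies on the plus strand of chr8:125371866-125391297. Peak_19104 (276 bp) and Peak_19105 (84 bp), which lies inside it, lie in the first exon before the start codon, which Peak_19104 reaches, with midpoints 390 and 305 bp downstream of the TSS. Peak_19104 held 32.1, 19.5 and 25.8 CPM in CTL and 34.6, 30.9 and 32.9 CPM in H2A.Z dKO. CTL replicate 1 lay within the range of the H2A.Z dKO libraries, and the CTL libraries spread more widely (SD 6.32 against 1.81, n = 3 each). The log2 fold change was 0.34 (SE 0.18, unadjusted p = 0.0693, adjusted p = 0.972 from edgeR), a ratio of 1.26 with a 95% confidence interval of 0.98 to 1.63. It was the second smallest p-value among intervals that were higher in H2A.Z dKO. With single libraries left out, the log2 fold change ran from 0.17 to 0.55. Peak_19105 held 13.8, 8.44 and 13 CPM in CTL and 16.5, 10.4 and 13.9 CPM in H2A.Z dKO, and the groups overlapped (log2 fold change 0.22, SE 0.23). The value of Peak_19105 was 0.028 without CTL replicate 2, 0.050 without H2A.Z dKO replicate 1 and 0.37 without CTL replicate 1 or H2A.Z dKO replicate 2.

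*Spry1*, an inhibitor of receptor tyrosine kinase signalling on the plus strand of chr3:37538869-37543520, was the single gene of the 9 whose summed counts were lower in H2A.Z dKO. It has Peak_5686 on the TSS, Peak_5685 at -184 bp, Peak_5687 in an intron at 852 bp, and Peak_5688 in the coding exon. At the TSS itself the groups were nearly equal, with 25.9, 33.1 and 24.1 CPM in CTL and 29.3, 27.7 and 26.1 CPM in H2A.Z dKO. Peak_5686 had a log2 fold change of -0.0018 (SE 0.17). Peak_5685 held 10.2, 10.6 and 11 CPM in CTL and 6.84, 9.74 and 7.84 CPM in H2A.Z dKO, so that the groups did not overlap. Its log2 fold change was -0.38 (SE 0.22, unadjusted p = 0.0984, adjusted p = 0.972 from edgeR). Peak_5687 held 11.5, 9.96 and 11.3 CPM in CTL and 5.26, 9.96 and 8.63 CPM in H2A.Z dKO. Here H2A.Z dKO replicate 2 was level with CTL replicate 2, and H2A.Z dKO replicate 1 was the lowest library. Its log2 fold change was -0.47 (SE 0.24, unadjusted p = 0.0634, adjusted p = 0.972 from edgeR), and it ran from -0.66 to -0.24 with single libraries left out. In the coding exon Peak_5688 held 13.3, 21 and 16.4 CPM in CTL and 14.7, 17.5 and 13.5 CPM in H2A.Z dKO, which overlap (log2 fold change -0.14, SE 0.21).

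Of the receptors, *Notch1* lies on the minus strand of chr2:26313423-26372183 and has 5 intervals. Peak_2809 covers its main coding TSS and was close to equal in all libraries, with 37.0, 37.2 and 32.3 CPM in CTL and 35.1, 38.1 and 32.9 CPM in H2A.Z dKO. The ratio was 0.992, with a 95% confidence interval of 0.803 to 1.23. The part of Peak_2809 upstream of the TSS, shown above, holds the GC box GGGCGG, which Sp1 binds, 5 times, counting both strands. Upstream of the gene, Peak_2810 (31 bp) and Peak_2811 (230 bp) have midpoints at -9018 and -9236 bp from the nearest TSS. Peak_2811 holds GTGGGAA, and had 32.4, 37.0 and 29.2 CPM in CTL and 41.6, 30.5 and 35.3 CPM in H2A.Z dKO, which overlap (log2 fold change 0.12, SE 0.16). Peak_2810 had the highest RPKM of the intervals of *Notch1*, a mean of 194 ± 53.5 RPKM for CTL and 192 ± 32.5 for H2A.Z dKO (SD, n = 3 each), from a very narrow interval of 6.23, 7.57 and 4.25 CPM in CTL and 7.02, 4.76 and 6.08 CPM in H2A.Z dKO. Peak_2808, in an intron, had a CTL mean of 8.00 ± 1.25 CPM and an H2A.Z dKO mean of 6.11 ± 1.57 CPM (SD, n = 3 each) (log2 fold change -0.38, SE 0.25, or -0.17 without H2A.Z dKO replicate 1 and -0.56 without H2A.Z dKO replicate 3), and Peak_2807, at the 3′ end, 6.67 ± 0.541 and 7.10 ± 1.45 CPM.

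*Notch3*, on the minus strand of chr17:32257765-32303825, had no interval at its promoter. It has Peak_35313 and Peak_35314 in coding exons with midpoints 23581 and 23446 bp from the TSS, and Peak_35315 and Peak_35316, which overlap, upstream at -6482 and -6606 bp. Peak_35315 had the smallest p-value of the 32 intervals. It held 8.19, 8.66 and 7.93 CPM in CTL and 10.0, 13.9 and 12.6 CPM in H2A.Z dKO, and the groups did not overlap. Its log2 fold change was 0.54 (SE 0.22, unadjusted p = 0.0213, adjusted p = 0.972 from edgeR), and it ran from 0.44 to 0.67 with single libraries left out, where the unadjusted p ran from 0.00446 to 0.0912. The overlapping Peak_35316 held 9.67, 9.52 and 8.50 CPM in CTL and 8.07, 12.6 and 9.02 CPM in H2A.Z dKO, with a log2 fold change of 0.079 (SE 0.23). The higher values of Peak_35315 were thus not seen to the same degree next to it, although a test of this difference was not made. Both have low RPKM, 58.0 and 63.8 on average. In the exons, Peak_35314, the stronger of the pair, held 6.55, 6.49 and 8.21 CPM in CTL and 7.19, 7.36 and 5.88 CPM in H2A.Z dKO, which overlap. Peak_35313 had a CTL mean of 6.56 ± 1.03 CPM and an H2A.Z dKO mean of 5.23 ± 1.54 CPM (SD, n = 3 each).

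Of the targets, *Hes1*, on the plus strand of chr16:30064470-30067882, was the most accessible by RPKM. Peak_33681 and Peak_33682 overlap each other and lie upstream of a first annotated start, with midpoints at -263 and -205 bp. Peak_33683 lies at -150 bp from the start of the coding transcript, at position 30065426. The RBPJ core lies at bases -81 to -75 from that start, just past Peak_33683, which ends 83 bp before the start. Peak_33681 had 201 ± 12.7 RPKM (SD, n = 3) in CTL, Peak_33682 183 ± 9.02 and Peak_33683 182 ± 39.0, so that the order of the last pair is within their spread.

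The upstream intervals of *Hes1* were set apart by 1 library. Peak_33682 held 51.9, 48.5 and 47.0 CPM in CTL and 77.4, 40.5 and 41.8 CPM in H2A.Z dKO. H2A.Z dKO replicate 1 was the highest of all libraries, while the other H2A.Z dKO libraries were the lowest. The log2 fold change of 0.12 (SE 0.20) became -0.26 without H2A.Z dKO replicate 1. Peak_33681 followed the same libraries, since it shares most of its bases, with 39.2, 34.8 and 35.4 CPM in CTL and 54.6, 30.3 and 32.2 CPM in H2A.Z dKO, and its log2 fold change went from 0.10 to -0.23. At Peak_33683, beside the coding start, H2A.Z dKO replicate 1 was not high. That interval held 27.4, 27.9 and 18.4 CPM in CTL and 18.9, 21.6 and 21.2 CPM in H2A.Z dKO, with a log2 fold change of -0.27 (SE 0.19, adjusted p = 0.972 from edgeR), which was -0.42 when CTL replicate 3 was left out and -0.18 when CTL replicate 2 was. Downstream of the gene, Peak_33684 held 13.9, 12.6 and 13 CPM in CTL and 10.9, 16.4 and 17.5 CPM in H2A.Z dKO, on both sides of the CTL libraries (log2 fold change 0.17, SE 0.21), with 0.023 without H2A.Z dKO replicate 3 and 0.36 without H2A.Z dKO replicate 1. Peak_33685 had a CTL mean of 27.3 ± 2.75 CPM and an H2A.Z dKO mean of 30.4 ± 3.47 CPM (SD, n = 3 each). In both of these H2A.Z dKO replicate 1 was the lowest library of its group. That this library had a larger share of counts in promoters was given above, and its part in the values of *Hes1* was not tested.

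**Figure D3:**
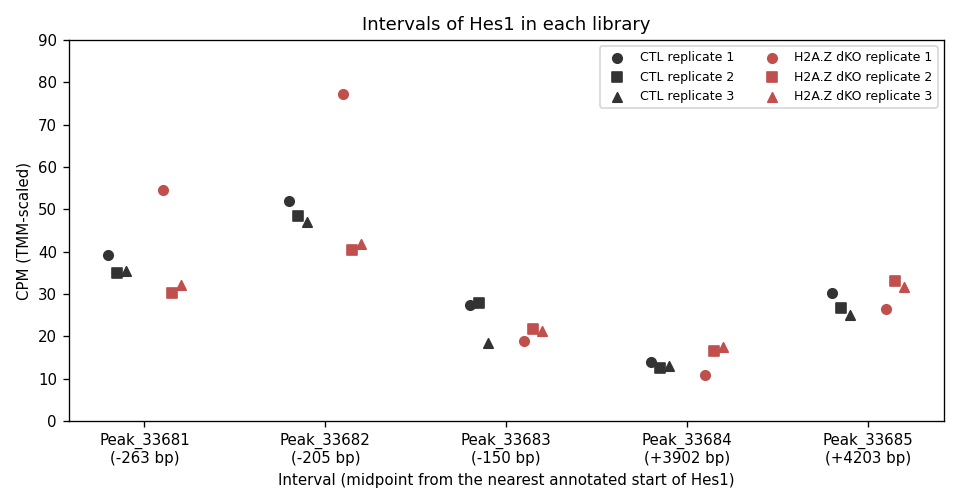
Scaled counts (CPM) of the 5 intervals of *Hes1* in each library, CTL in black and H2A.Z dKO in red, with the midpoint of each interval from the nearest annotated start of the gene. H2A.Z dKO replicate 1 (red circle) lies highest at the first 2 intervals, at 54.6 and 77.4 CPM, and not at the other 3.

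*Heyl*, on the plus strand of chr4:122910799-122927118, has 7 intervals, the most of the 10 genes. Peak_8738 covers an internal annotated start, and holds GTGGGAA. The start of the coding transcript, at the beginning of the gene, has no interval within 1 kb. Peak_8738 held 28.0, 35.7 and 23.8 CPM in CTL and 31.6, 30.7 and 32 CPM in H2A.Z dKO. The H2A.Z dKO libraries lay between the CTL libraries (ratio 1.07, 95% confidence interval 0.844 to 1.36). Upstream of the gene are Peak_8733 to Peak_8736, with midpoints from -7505 to -5194 bp. Peak_8735, the strongest of them per length but only 23 bp wide, had a CTL mean of 127 ± 57.1 RPKM and an H2A.Z dKO mean of 137 ± 22.8 RPKM (SD, n = 3 each), from 3.44, 3.9 and 1.42 CPM in CTL and 2.81, 3.68 and 2.94 CPM in H2A.Z dKO. Peak_8733 was higher in each H2A.Z dKO library than in any CTL library, with 8.36, 9.31 and 8.50 CPM against 9.47, 10.4 and 9.81 CPM, although the log2 fold change was small (0.18, SE 0.21). At the other 4 intervals, Peak_8734, Peak_8736, Peak_8737 and Peak_8739, the groups overlapped, with log2 fold changes from -0.13 to 0.19.

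*Hey1*, on the minus strand of chr3:8663362-8667039, has a CpG-rich start without an interval. Its intervals, Peak_5451 (47 bp) and Peak_5452 (33 bp), lie in a coding exon, 2387 and 2298 bp downstream of the TSS. Per length they were level, with means of 158 and 160 RPKM. Peak_5452 held 4.59, 6.93 and 3.12 CPM in CTL and 5.09, 5.41 and 6.47 CPM in H2A.Z dKO. The groups overlapped (log2 fold change 0.19, SE 0.28), and the value was 0.0021 without CTL replicate 3 and 0.50 without CTL replicate 2. Peak_5451 had a CTL mean of 6.79 ± 0.321 CPM and an H2A.Z dKO mean of 8.01 ± 1.32 CPM (SD, n = 3 each).

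Compared over the whole table, no interval of the 32 was called, that is, had an adjusted p under 0.05. With edgeR's quasi-likelihood test and Benjamini-Hochberg adjustment over 39768 intervals, 0 intervals of the table (0%) were called, and the adjusted p of the 32 ran from 0.972 to 0.9995. DESeq2 and limma voom also called 0 of them. At an unadjusted p under 0.05 there was 1 of the 32 (Peak_35315) with edgeR, 1 with DESeq2 (the same interval) and 2 with limma voom (also Peak_5687), where edgeR gave 1970 (4.95%) in the table, 2.64% higher and 2.31% lower, DESeq2 756 (1.9%) and limma voom 1996 (5.02%). The groups did not overlap in 4 of the 32, 3 of them higher and 1 lower in H2A.Z dKO, against 10.8% of the table (5.22% higher, 5.63% lower). Both shares are near those of the table. Of the log2 fold changes, 21 were above and 11 below 0, with a median of 0.093, against 52.5% above 0 and a median of 0.012 in the table. By the authors' column, of the 19 intervals listed for H2A.Z dKO alone 15 were above 0 (median 0.12), where 69.8% of all intervals so listed were (median 0.11), whereas of the 8 listed for both groups 2 were above 0 (median -0.089), against 43.7% of that class (median -0.023). Of the 5 listed for CTL alone 4 were above 0 (median 0.10), against 29.5% of that class (median -0.13). The 1 below 0 was Peak_5687 of *Spry1* (-0.47). The 4 include the overlapping Peak_33681 and Peak_33682 of *Hes1*, which went to -0.23 and -0.26 without H2A.Z dKO replicate 1. The 5 are thus too few, and partly the same bases, to give a direction. The part of the way intervals entered the table in these signs was not tested, and their count is a description only. The median of the 32 was 0.018 without CTL replicate 3 and 0.054 without H2A.Z dKO replicate 2.

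**Figure D4:**
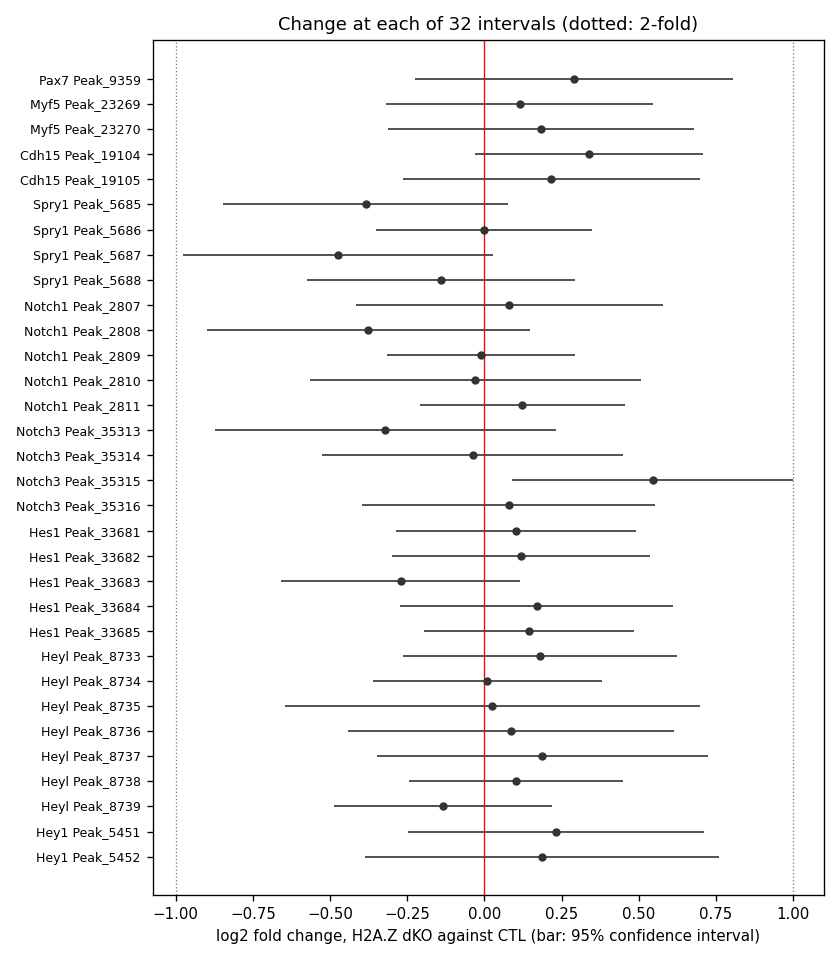
Log2 fold change of H2A.Z dKO against CTL at each of the 32 intervals, with its 95% confidence interval as a bar and dotted lines at a 2-fold change. The bars of 31 intervals cross 0, and that of Peak_35315 of *Notch3* does not, before adjustment over the table.

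The intervals were also split by position. Of the 10 intervals within 1 kb of a TSS of their own gene 5 were higher and 5 lower in H2A.Z dKO, with a median log2 fold change of 0.050. Of the 10 intergenic intervals 9 were higher, with a median of 0.10, against 51.4% and a median of 0.0094 of the intergenic intervals of the table. Neighbouring intervals share libraries and some share fragment ends, so they are not independent, and no test was made of these counts. In the table H2A.Z dKO replicates 2 and 3 had medians 0.091 and 0.064 above the mean of the libraries at intervals outside promoters, and H2A.Z dKO replicate 1 one of -0.12.

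The size of change that these counts allow was limited. In 31 of the 32 intervals the 95% confidence interval excluded a change of more than 2-fold either way, and in 15 one of more than 1.5-fold, against 91.4% and 49.6% of the table. Summed per gene, the counts were more precise. All 9 genes lay within a 2-fold and 6 within a 1.5-fold change, against 97.9% and 86.3% of all genes.

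The sums per gene gave the same calls. Of 13484 protein-coding genes with an interval 0 (0%) had an adjusted p under 0.05 with edgeR, and 607 (4.5%, with 1.85% higher and 2.65% lower) an unadjusted p under 0.05, of which 0 were among the 9 genes. With DESeq2 and limma voom 0 of the 9 were called, and 0 reached 0.05 before adjustment, against 330 (2.45%) and 617 (4.58%) of all genes. Among these 9 genes 8 had a log2 fold change above 0, with a median of 0.13, against 48.3% and a median of -0.0051 for all genes. Where the nearest TSS had to be the gene's own, which leaves out *Myf5*, 7 of 8 were above 0 with a median of 0.098. All intervals of *Pax7*, *Myf5*, *Hey1* and *Notch1* and 6 of the 7 of *Heyl* are listed for H2A.Z dKO alone, and the part of that listing in the signs of these sums was not tested. The number above 0 was 6 without CTL replicate 3 and 6 without H2A.Z dKO replicate 1, and the median was 0.039 without H2A.Z dKO replicate 2, 0.22 without H2A.Z dKO replicate 1 and 0.035 over the 5 genes with intervals within 1 kb of a TSS when only these were summed. *Cdh15* had the highest value, 0.30 (SE 0.17), with 45.9, 27.9 and 38.8 CPM in CTL and 51.1, 41.3 and 46.9 CPM in H2A.Z dKO, which overlap. The value of *Cdh15* was 0.49 without CTL replicate 1, 0.13 without CTL replicate 2 and 0.22 without H2A.Z dKO replicate 1. It was the highest of the 9 without CTL replicate 1 and without H2A.Z dKO replicate 2, whereas *Hey1* (0.37) was the highest without CTL replicate 2 and *Pax7* (0.31 to 0.38) without each of the other 3, level with *Cdh15* (0.32 for both) without CTL replicate 3. *Hey1* followed *Pax7* with 0.22 (SE 0.19), from 11.3, 14.1 and 9.63 CPM in CTL and 13.2, 14.7 and 13.1 CPM in H2A.Z dKO. *Notch3* had 0.13 (SE 0.15), with 29.8, 31.6 and 32 CPM against 28.8, 40.3 and 33.1 CPM. H2A.Z dKO replicate 2 was the highest and H2A.Z dKO replicate 1 the lowest library for this gene. The Notch receptor *Notch1* (0.018, SE 0.098) and the targets *Heyl* (0.021, SE 0.12) and *Hes1* (0.069, SE 0.11) had the smallest values. For *Notch1* the ratio was 1.01, with a 95% confidence interval of 0.875 to 1.17. *Spry1* had -0.16 (SE 0.12), with 60.8, 74.7 and 62.9 CPM in CTL and 56.1, 64.9 and 56.1 CPM in H2A.Z dKO, and ran from -0.24 without H2A.Z dKO replicate 2 to -0.066 without CTL replicate 2. *Pax7* was the single gene whose groups did not overlap, against 10.6% of all genes (4.05% higher, 6.55% lower).

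**Figure D5:**
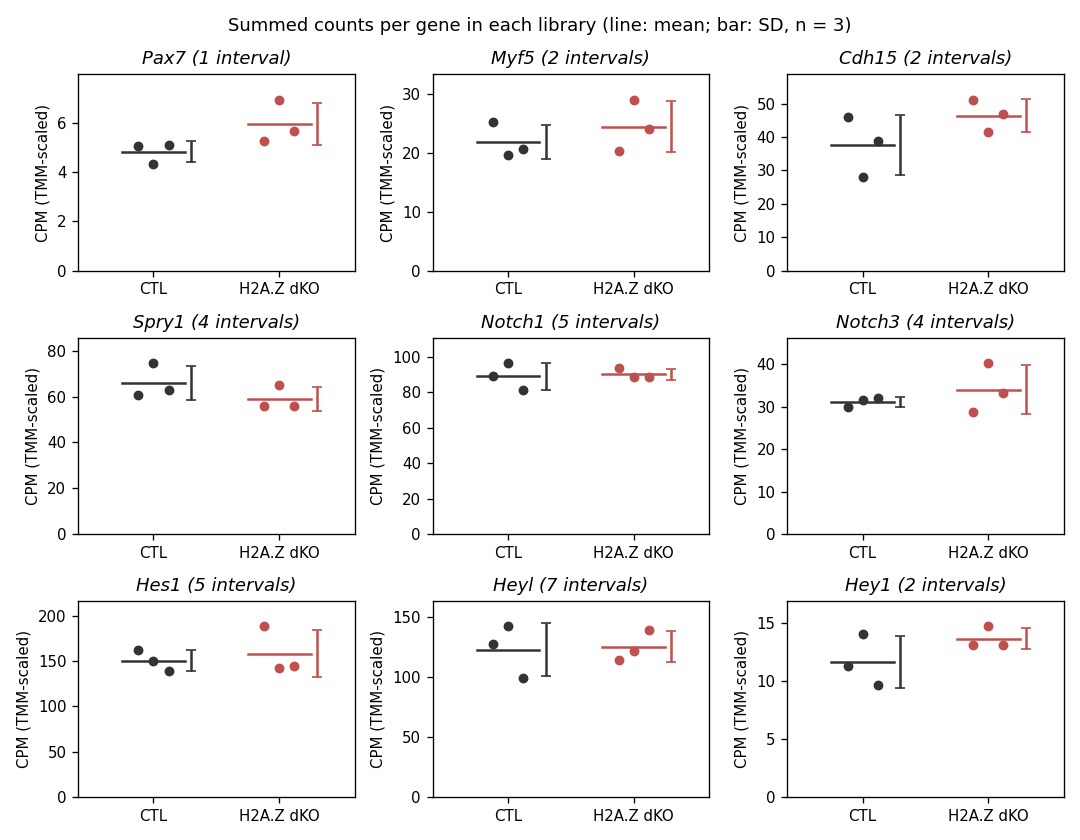
Counts summed over the intervals of each gene, in CPM, for each library, with the group mean as a line and the SD (n = 3) as a bar, and axes that start at 0. The groups overlap in 8 of the 9 genes, and for *Pax7* the H2A.Z dKO libraries lie above the CTL libraries.

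The other genes of the pathway and of satellite cells were tested per gene in the same fit. Of 43 other Notch pathway genes with an interval 0 were called, 25 had a log2 fold change above 0 and the median was 0.027. Without H2A.Z dKO replicate 1 there were 19 above 0 with a median of -0.012, where the median of all genes was -0.025. The median of the 43 genes was 0.0072 without CTL replicate 1, 0.015 without H2A.Z dKO replicate 3 and 0.046 without H2A.Z dKO replicate 2. With only intervals within 1 kb of a TSS summed, 19 of 38 genes were above 0, with a median of -0.00093. An unadjusted p under 0.05 was reached by 3, namely *Hes6*, a relative of the Hes repressors (-0.28, SE 0.10), the ligand gene *Dll4* (-0.25, SE 0.096) and the coactivator gene *Maml2* (0.92, SE 0.40), which had at most 2.28 CPM. *Itch*, a ubiquitin ligase gene, was next among the higher genes (0.29, SE 0.14). Of 34 other satellite cell genes 0 were called, 19 were above 0 and the median was 0.015. Here too the direction turned without H2A.Z dKO replicate 1, with 13 above 0 and a median of -0.039, where that of all genes was -0.025. Without each of the other libraries the median was 0.014 to 0.045, the highest without CTL replicate 1. It was 0.050 with only intervals within 1 kb of a TSS summed (21 of 32 above 0). With overlapping intervals counted once it was 0.011. The 1 with an unadjusted p under 0.05 was *Sox8*, a transcription factor gene, with 99.6, 107 and 117 CPM in CTL and 80.9, 84.2 and 85.5 CPM in H2A.Z dKO (log2 fold change -0.37, SE 0.096, adjusted p = 0.969 from edgeR). *Cd34*, for a surface protein that endothelial cells also carry, had -0.29 (SE 0.15), and among the genes that were higher the smallest p-value was that of the integrin gene *Itga7* (0.19, SE 0.12).

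Markers of other cells that use the Notch pathway were measured beside these genes. All 12 endothelial markers with an interval had a log2 fold change below 0, under each scaling tried, but 2 were above 0 without CTL replicate 2 and 1 without H2A.Z dKO replicate 1, and 2 of 8 when only intervals within 1 kb of a TSS were summed. The median was -0.19 and their summed level was 408 to 453 CPM in CTL and 359 to 376 CPM in H2A.Z dKO, without overlap. The macrophage sums below did not overlap either, and by gene the groups did not overlap in 10.6% of all genes (6.55% lower). None of the 12 was called, and 3 had an unadjusted p under 0.05, among them *Cldn5* (-0.60, SE 0.20) and *Kdr* (-0.39, SE 0.13), a tight junction and a growth factor receptor gene of endothelium. The defining markers *Emcn*, *Eng*, *Robo4* and *Sox17* had no interval. The 7 of 11 smooth muscle and pericyte markers with an interval summed to 172 to 174 CPM in CTL and 158 to 181 CPM in H2A.Z dKO, the 8 of 13 fibroblast markers to 392 to 455 and 428 to 462 CPM, the 5 of 8 Schwann cell markers to 226 to 238 and 210 to 236 CPM, and the 3 of 12 macrophage markers to 287 to 305 and 259 to 276 CPM. Nearly all of the macrophage sum came from 5 intervals of *Cd68*, none within 1 kb of its TSS, with 282, 294 and 292 CPM in CTL and 268, 252 and 266 CPM in H2A.Z dKO, and 1 of these markers was left when the nearest TSS had to be the gene's own. Of the fibroblast markers 7 of 8 had a log2 fold change above 0, with a median of 0.11, which ran from 0.040 without H2A.Z dKO replicate 1 to 0.20 without CTL replicate 2. Of the muscle fibre markers 15 of 21 were above 0, with a median of 0.057, which ran from 0.0068 without CTL replicate 2 to 0.090 without H2A.Z dKO replicate 1. The part of these cells in the values of *Notch1*, *Notch3*, *Dll4*, *Hes1*, *Heyl* and *Hey1*, which vessels also use, was not tested.

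Sequence motifs were searched on both strands in windows of 200 bp around the midpoint of each interval. The RBPJ core GTGGGAA was in 3 of the 32 windows (9.38%), those of Peak_33683 of *Hes1*, Peak_8735 of *Heyl* and Peak_2811 of *Notch1*, against 4.22% of all windows. The E-box CAGCTG, which myogenic factors bind, was in 9 (28.1%) against 17.5%, and the E-box CACGTG in 2 (6.25%) against 5.36%. The 9 include the overlapping pairs Peak_33681 with Peak_33682 and Peak_35315 with Peak_35316, and the 2 are Peak_19104 and Peak_19105, of which the latter lies inside the former, so the same letters can count for both of a pair. Outside promoter intervals, where more of the 32 lie, CAGCTG was in 7 of 20 windows (35%) against 23.7%, and in promoter intervals in 2 of 12 (16.7%) against 11.9%. The AP-1 motif TGANTCA was in 2 against 7.49%, the MEF2 motif (CTA and TAG with any 4 bases between) in 1 against 3.34%, and the GC box GGGCGG in 13 (40.6%) against 35.8%. A match is a run of letters and not a measured binding site. The intervals whose windows hold GTGGGAA had log2 fold changes of -0.27, 0.026 and 0.12, with groups that overlapped at each. At Peak_33683 and Peak_8735 the core lies in the window but outside the interval. Peak_8738 of *Heyl* holds the core in the interval but outside its window, so it is not among the 3. Its log2 fold change was 0.10, and its groups overlapped too.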

How the data were processed

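Counts were analysed from 6 ATAC-seq libraries, 3 per group, which the labels do not tie to separate animals, so p-values measure the spread between these libraries. The authors trimmed reads (Trimmomatic), aligned them to mm9 (Bowtie2 per the labels), removed duplicates (Picard), shifted fragment ends for Tn5, called peaks with MACS2 and deposited raw counts of fragment ends per interval. The deposited columns of their DESeq2 comparison were not used. All columns of counts were mapped to samples, and coordinates, taken as 1-based, may be off by 1 base.

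Intervals were annotated with GENCODE vM1 and tested with edgeR 4.0.16 in R 4.3.3 (robust quasi-likelihood test, TMM factors between 0.971 and 1.02, no filter, no block, Benjamini-Hochberg adjustment over all intervals or genes, threshold 0.05). CPM are counts per 1000000 in intervals, scaled by TMM, and RPKM are not scaled by TMM. For sums per gene, an interval counts in each gene it belongs to, and bases that intervals share count in each. With 3 simulations of 200 changed features, the test per interval recovered 67.7% of 2-fold and 18.3% of 1.5-fold changes among 39768 intervals, and the test per gene 94.3% and 74.3% among 13484 genes. Errors do not cover PCR copies that remained. The alternatives were DESeq2 1.42.0, limma voom 3.58.1, other scalings, a filter of 20 counts, a replicate block, an adjusted p under 0.1, other rules for intervals and each library left out. Sequences were read from mm9 with pysam 0.24.0, leaving out UTRs.

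The genes and lists were chosen with earlier results of these data known. Named are all 10 genes, given in full their intervals within 1 kb of a TSS (at most 2, by RPKM), the strongest beyond it and the 2 smallest p-values in each direction, and from each list the 2 genes of smallest p higher and lower, of which 1 is not reported here. The other intervals, and the marker genes *Cldn5*, *Kdr* and *Cd68*, were added after their values were seen.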

Additional observations from a re-analysis of the deposited data

How the results depend on the processing

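No alternative called an interval or a gene: the counts of calls were 0 of 32 and 0 of 9 under each, also at an adjusted p under 0.1. The median log2 fold change of the intervals was 0.050 to 0.10 under the alternatives that keep every library and 0.018 to 0.13 with single libraries left out. The lowest came without CTL replicate 3. With the replicate number as a block the median was 0.073, and 1 gene instead of 0, *Cdh15*, had an unadjusted p under 0.05. The numbers do not pair the libraries, since libraries of the same number had deviations correlated at -0.098 to -0.032. In that block fit Peak_5686 of *Spry1* went from -0.0018 to 0.012, and it was 0.0014 with DESeq2, 0.010 with limma voom and 0.0013 with median-of-ratios factors. *Notch1* went from 0.018 to -0.013 when only intervals within 1 kb of a TSS were summed. Peak_35315 kept an unadjusted p under 0.05 without CTL replicate 2 (0.0330) and without H2A.Z dKO replicate 1 (0.00446), where Peak_33682, lower, made it 2 intervals. Without each of the other 4 libraries its p was 0.0536 to 0.0912, and the single interval under 0.05 was Peak_19104 without CTL replicate 1, Peak_33683 without CTL replicate 3 and Peak_5687 without H2A.Z dKO replicate 2, with 0 intervals without H2A.Z dKO replicate 3. Without CTL replicate 1 there was 1 gene, *Cdh15*.

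With single libraries left out, the sign held in 15 of 32 intervals and 5 of 9 genes. Where it did not, the log2 fold change ran as follows: *Notch1* -0.034 to 0.079, *Notch3* -0.0070 to 0.24, *Hes1* -0.081 to 0.14, *Heyl* -0.10 to 0.14, and by interval Peak_33681 -0.23 to 0.25, Peak_33682 -0.26 to 0.28, Peak_8734 -0.14 to 0.19, Peak_8735 -0.22 to 0.23, Peak_8736 -0.064 to 0.31, Peak_8738 -0.010 to 0.27, Peak_8739 -0.30 to 0.048, Peak_23269 -0.0042 to 0.31, Peak_23270 -0.048 to 0.38, Peak_2807 -0.079 to 0.21, Peak_2809 -0.067 to 0.024, Peak_2810 -0.19 to 0.15, Peak_2811 -0.0020 to 0.22, Peak_35314 -0.096 to 0.065, Peak_35316 -0.12 to 0.21, Peak_5686 -0.081 to 0.15, Peak_5688 -0.30 to 0.054. Where the sign held, Peak_33685 ran from 0.080 to 0.23, Peak_5451 from 0.12 to 0.33, Peak_8737 from 0.0015 to 0.51, Peak_35313 from -0.50 to -0.081 and the sum of *Hey1* from 0.12 to 0.37. The cause of these changes was not tested. At this depth single intervals mostly could not show a 1.5-fold change, and a missing interval does not show closed chromatin in the cells that use the gene.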
